A study of Sus scrofa with 8 samples.

Results

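Starburst amacrine cells are interneurons of the inner retina that release both acetylcholine and GABA. Acetylcholine is made by choline acetyltransferase (CHAT), and choline is brought back into the cell by the choline transporter SLC5A7. GABA is made by the glutamate decarboxylases GAD1 and GAD2 and loaded into vesicles by SLC32A1. The cells come as a pair of mirrored layers, ON and OFF, and their radiating processes carry the direction signal that direction-selective ganglion cells read. In mammals they are the main cholinergic neurons of the retina.

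Single nuclei were profiled from 8 pig retinas, and 2392 of 388491 nuclear barcodes were taken as starburst nuclei. A member had at least 1000 UMIs (unique molecular identifiers, each standing for 1 captured RNA molecule), at least 2 UMIs of CHAT and SLC5A7 together, at least 1 UMI of GAD1, GAD2 and SLC32A1 together, and at most 1 UMI of TRPM1, GRM6, PTPRC and PDE6C together. The last set marks bipolar cells, immune cells and cones. These genes chose the members, so their levels are a description only. The comparison set was 21310 other nuclei with at least 3 UMIs of GAD1 and GAD2, called other GABAergic nuclei below, a mixture in which other amacrine types and horizontal cells are the classes known to use GABA. The set also held much RNA of bipolar cell markers, at levels given below.

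The retinas came from 6 female Yucatan minipigs of 3 to 5 months, screened for neutralizing antibodies to the capsid. AAV animals received the capsid AAV2.7m8 carrying GFP under the ubiquitous CAG promoter into the vitreous of both eyes, and vehicle animals received buffer only. All animals, controls included, were given the hyaluronidase Vitrase into the vitreous beforehand and weekly methylprednisolone. At week 2 (day 15) there was 1 animal per arm with both eyes sequenced, AAV animal 7221 and vehicle animal 7222. At week 4 there were 2 animals per arm with the left eye sequenced, AAV animals 7248 and 7249 and vehicle animals 7250 and 7251, and they were killed on day 24 or day 28 without a label saying which. The replicate is the animal, so week 2 carries no test of its own and 2 against 2 animals cannot give an exact permutation p below 0.333. The labelled batch of each library is the same as its group, so batch and group cannot be told apart.

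The nuclei came from frozen retinas, were sorted on DAPI and were loaded on 4 droplet lanes per retina. Each retina held 121544835 to 173614051 UMIs. Members per retina numbered 336 and 307 in the week 2 AAV eyes, 381 and 457 in the week 2 vehicle eyes, 207 and 177 in the week 4 AAV eyes, and 226 and 301 in the week 4 vehicle eyes. The median member had 7723 UMIs (lowest 1248, highest 38555). Medians per retina ran from 6465 to 9478 UMIs in members and from 4621 to 6530 in other GABAergic nuclei, so members were the deeper set in every retina. Of 368982 distinct barcode sequences 17084 occurred in more than 1 retina, and 185 members carried such a sequence.

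Most members held starburst markers outside the rule, chiefly MEGF11. MEGF11, an adhesion receptor that spaces starburst cells, the transcription factors ISL1 and SOX2 of the starburst lineage, and MEGF10 were not used by the rule. Together they had at least 3 UMIs in 1943 members (81.2%, and 77.9% to 84.7% per retina) against 9.73% of other GABAergic nuclei, with a median of 14 UMIs against 0. The remaining 449 members had fewer, and 345 had none. In members most of these UMIs were of MEGF11, and MEGF10 was lower than in other GABAergic nuclei, at levels given below. Membership became less certain toward the threshold: of the 429 members with exactly 2 cholinergic UMIs 56.4% held these markers, and of the 837 barcodes just outside, with exactly 1, 27.1% did. Another 418 barcodes met the cholinergic condition without any GABA gene UMI, and 295 were left out for more than 1 UMI of the excluding genes. CHAT itself was seen in 1579 members, and 813 members had SLC5A7 UMIs only. The vesicular acetylcholine transporter SLC18A3, whose gene lies just upstream of CHAT (SLC18A3 at chr14:90113534-90115813, CHAT at chr14:90117464-90167611, Sscrofa11.1), was sparse, at a mean of 1.95 CPM (counts per 1000000 UMIs of the nuclei summed) in members and 0.0119 CPM in other GABAergic nuclei.

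**Figure D1:**
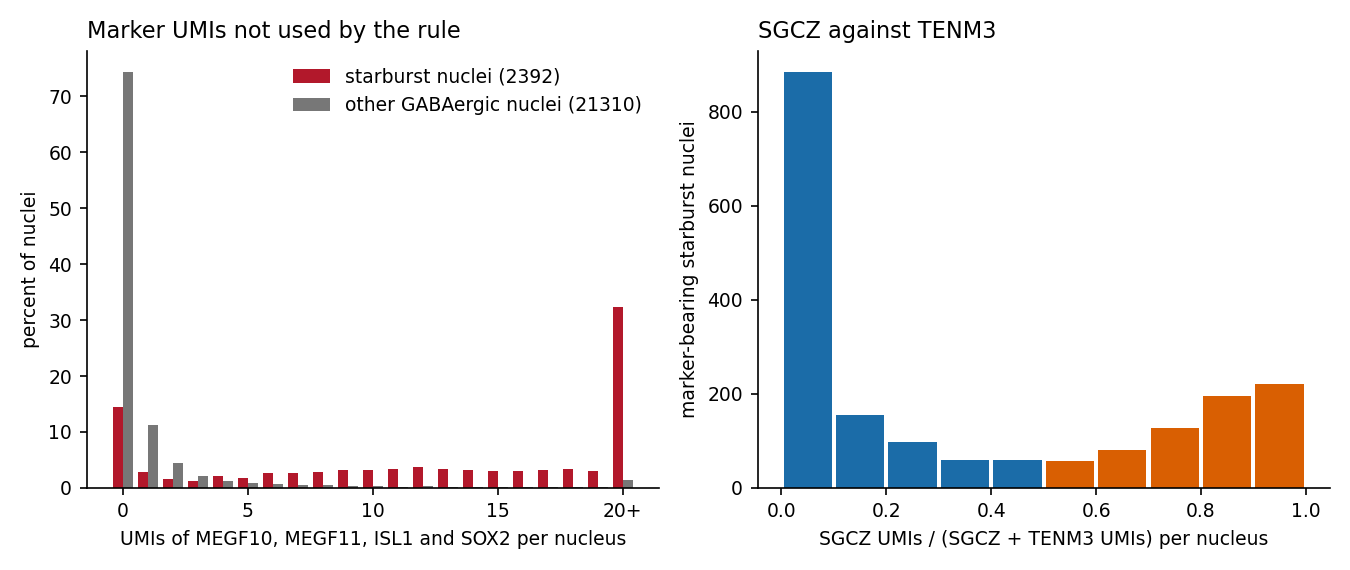
Left, the percent of starburst nuclei (2392, red) and other GABAergic nuclei (21310, grey) against their UMIs of MEGF10, MEGF11, ISL1 and SOX2 together, with 20 and above in the last bin. Right, the number of marker-bearing starburst nuclei against the share of SGCZ among SGCZ and TENM3 UMIs. Starburst nuclei mostly hold many marker UMIs with a minority at 0, and the right panel has a peak at each end, the TENM3 end being the taller.

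The 449 members with few markers were not one kind of nucleus. At least 2 UMIs of GRM5, a metabotropic glutamate receptor, were found in 281 of them, at least 5 UMIs of ERBB4, a neuregulin receptor, in 237, and both in 131. Those minima were met by 3.24% and 2.57% of the marker-bearing members. A CHAT UMI was found in 42.5% of members with few markers and in 71.4% of the others. These sets were drawn after the values were seen and carry no test. Of all 2392 members 679 (28.4%) held more than 5 UMIs of rod, cone, bipolar and Müller cell markers, mostly rod genes. In droplet data such UMIs can be free RNA or a second nucleus, and which of them it was here was not tested. The treatment fits below were repeated without either set, and both alternatives were chosen after the data were seen.

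Among marker-bearing members, SGCZ (zeta-sarcoglycan) and TENM3 (a teneurin adhesion protein) divided the nuclei. Of 1938 nuclei with a UMI count that placed them, 1268 lay on the TENM3 side and 670 on the SGCZ side (34.6%, and 31.0% to 42.9% per retina). FEZF1, a transcription factor known for ON starburst cells in mouse, had a UMI in only 31 members (1.30%), and 27 of these lay on the SGCZ side, 0 on the TENM3 side and 4 among members with few markers. A split by FEZF1 itself needed 50 such members and was not run. In the vehicle animals, SGCZ-side nuclei had the higher level of the latrophilin ADGRL2 (mean 357 against 37.9 CPM), of CA8, a carbonic anhydrase-related protein (167 against 18.1 CPM), of the ephrin receptor EPHA6 (208 against 23.5 CPM) and of the cadherin CDH11 (127 against 18.0 CPM). TENM3-side nuclei had the higher level of the potassium channel KCNH5 (312 against 57.4 CPM), of MYH15, a myosin heavy chain (176 against 34.7 CPM), of the adhesion protein NTM (338 against 75.0 CPM), of the receptor kinase KIT (52.9 against 10.8 CPM) and of the muscarinic receptor CHRM2 (455 against 157 CPM). Both sides had MEGF11 at like levels, 2145 CPM on the SGCZ side and 1968 CPM on the TENM3 side. The sides were defined on these nuclei and have no test. The labels do not tie either side to ON or OFF.

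The first comparison set starburst nuclei against other GABAergic nuclei of the same animals, with UMIs summed per animal and class and the animal kept as a block (edgeR's quasi-likelihood test with Benjamini-Hochberg adjustment). Of 17341 genes tested 3446 were higher in starburst nuclei (19.9%) and 3981 lower (23%), 42.8% in all, so a call alone sets no gene apart. Scaling by library size alone moved the median of all genes to -0.13 on the log2 scale and the split to 2330 higher and 5371 lower. Of 12 starburst markers listed for the label check 11 were tested, and 6 were higher and 4 lower (median log2 difference 1.43, against 0.0056 over all genes).

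MEGF11 was at 1753 CPM in starburst nuclei and 117 in the others (means over 6 animals), a log2 difference of 4.13 ± 0.14 (SE). ISL1 stood at 110 against 9.88 CPM (3.71 ± 0.15) and SOX2 at 10.8 against 1.04 CPM (3.42 ± 0.22). SV2C, a synaptic vesicle protein, stood at 793 against 75.4 CPM (3.55). Each was higher in starburst nuclei in 6 of 6 animals. The listed markers that went the other way were MEGF10 at 27.0 against 69.6 CPM (-1.23 ± 0.16), KCNC2 at 212 against 527 CPM, SEMA6A at 223 against 275 CPM and GRM2, at about 1 to 3 CPM in both. All these levels include the members with few markers. In vehicle animals KCNC2 was at 22.8 CPM in marker-bearing members with few other-cell UMIs. It was at 944 and 1200 CPM in sets of few-marker members holding GRM5 and ERBB4. FEZF1 was at 1.51 against 1.89 CPM (adjusted p = 0.90).

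The genes furthest above the other GABAergic nuclei were of varied kinds. The thyrotropin receptor TSHR was at 858 CPM in starburst nuclei against 11.8 CPM (log2 difference 6.35 ± 0.07), and COL25A1, a membrane-spanning collagen, at 1748 against 37.5 CPM (5.67 ± 0.08). CDCA7L had the largest log2 difference of the genes named by the rule of selection (6.54, 49.8 against 0.706 CPM). The other high genes were PHLDB2 (6.27), the carbonyl reductase CBR3 (5.90), the immune checkpoint ligand HHLA2 (5.79), CFAP161 (5.49), the prostaglandin E2 receptor PTGER3 (5.38), the extrasynaptic GABA-A receptor subunit GABRD (5.28), the actin-binding protein SYNPO2 (5.20), ENTREP1 (5.13) and the collagen-binding integrin ITGA11 (5.08). The largest falls were in MALRD1 (-4.72), the growth factor receptor PDGFRA (-4.53), the kainate receptor GRIK1 (97.9 against 2043 CPM, -4.36), TC2N (-4.35), TMEM26 (-4.34), the transcription factor LHX9 (-3.96), KLHL1 (-3.93) and the calcium-binding protein CABP5 (-3.92). Summed bipolar cell markers were also far higher in the other GABAergic nuclei, at levels given below. The part of bipolar cell RNA in these falls was not tested. The rule of selection required the same direction in 6 of 6 animals, and the 20 genes kept it in every alternative that gave a value (18 of 20 had one among members with few UMIs of other cells' markers).

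**Figure D2:**
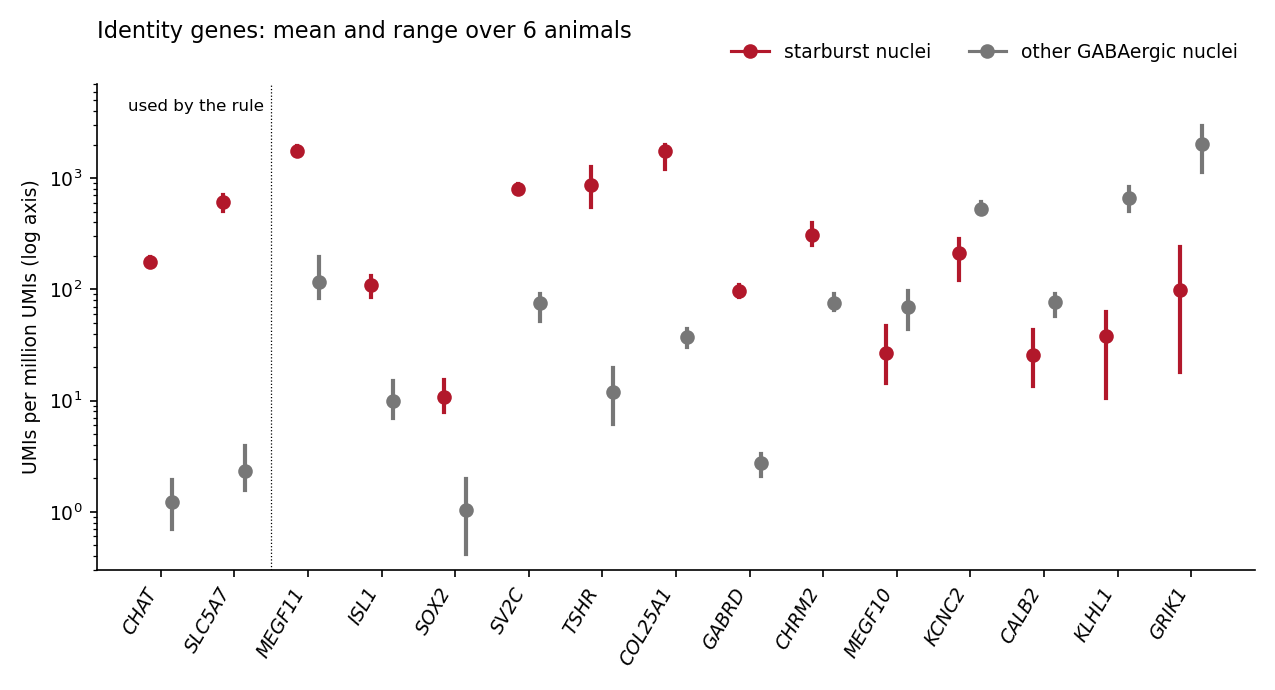
CPM on a log axis for 15 genes in starburst nuclei (red) and other GABAergic nuclei (grey); points are means over 6 animals and bars the lowest and highest animal. CHAT and SLC5A7, left of the dotted line, chose the members. MEGF11 to CHRM2 lie above the grey points and MEGF10 to GRIK1 below them.

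The transmitter machinery of starburst nuclei differed gene by gene. Of 6 listed genes of acetylcholine breakdown and of choline handling tested, 3 were higher. PRIMA1, which anchors acetylcholinesterase, stood at 69.3 against 26.5 CPM (1.54), choline phosphotransferase CHPT1 at 145 against 85.9 CPM (0.88), and acetylcholinesterase ACHE at 13.2 against 9.61 CPM (0.58, higher in 5 of 6 animals). The other 3 were lower, namely the choline transporter SLC44A1, the collagen tail COLQ and the choline kinase CHKA. Of 13 acetylcholine receptor genes in the files only 6 had enough UMIs to test, with 1 higher and 4 lower. The higher one was the muscarinic receptor CHRM2, at 311 against 76.0 CPM (2.16 ± 0.10). The nicotinic subunits CHRNA3, CHRNA4, CHRNA6 and CHRNB3 were lower, CHRNB3 by the most (3.25 against 21.3 CPM, -2.73).

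GABA handling had 1 of 8 genes higher and 5 lower, with the GABA transaminase ABAT lowest of them (38.0 against 111 CPM, -1.43). Of 21 GABA and glycine receptor genes 6 were higher and 12 lower. GABRA4 was at 992 against 39.0 CPM (4.80 ± 0.09) and GABRD, with which it is known to form extrasynaptic receptors, at 96.9 against 2.73 CPM (5.28). GABRB2 was also higher (663 against 300 CPM). GABRA5 (-3.37), the glycine receptors GLRA1 (-2.50) and GLRA3 (-2.24), and GABBR2 (-1.99) were lower. Of 24 glutamate receptor genes 8 were higher and 13 lower. The metabotropic receptor GRM8 was at 4571 against 804 CPM (2.63 ± 0.06), and the AMPA receptor subunits GRIA2 (0.47) and GRIA3 (0.69) were higher by less. GRIN3A (-3.87), GRM3 (-3.00) and GRM7 (-2.06) were lower.

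Of 29 voltage-gated channel genes 23 were lower and 6 higher. The sodium channels SCN1A (39.7 against 196 CPM), SCN2A (34.1 against 172), SCN3A (49.0 against 175) and SCN9A (11.6 against 66.3) were all lower, by 1.72 to 2.22 on the log2 scale, and SCN8A was lower by less (-0.29). The P/Q-type calcium channel CACNA1A was higher (3305 against 1007 CPM, 1.85), as were KCNQ5 (1145 against 302 CPM, 2.03) and the Kv3 potassium channel KCNC1 (238 against 95.9 CPM, 1.43), while the L-type channel CACNA1D was lower (208 against 761 CPM, -1.74). Of 22 genes of the release machinery 10 were higher and 9 lower, with SV2C and SYN2 (763 against 401 CPM) above and UNC13C (159 against 975 CPM, -2.48) and CPLX2 (11.5 against 66.5 CPM, -2.35) below. Of 35 adhesion and wiring genes tested 8 were higher and 23 lower. TENM2 (7950 against 941 CPM, 3.19), the cadherin CDH6 (357 against 44.1 CPM, 3.12), CNTN5 (4540 against 1074 CPM, 2.21) and PLXNA2 (724 against 239 CPM, 1.75), a semaphorin receptor needed for starburst lamination, were higher. UNC5D (-3.70), CDH9 (-3.53), CDH8 (-3.47) and DSCAM (-2.05) were lower.

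Markers of the other cell classes did not all go 1 way. Summed microglial markers were low but higher in members than in other GABAergic nuclei in every retina, as at 38.0 against 24.7 CPM in 7248. Summed ganglion cell markers were higher in members in some retinas (65.6 against 27.5 CPM in 7248). They were lower in others (43.6 against 54.6 CPM in the left eye of 7222). Of 8 markers of other amacrine types tested 6 were lower and 0 higher, and of 5 horizontal cell markers all 5 were lower. Of 9 bipolar markers 7 were lower and 1 higher, and of 10 rod markers 0 passed in either direction (median -0.09), so rod RNA was of like level in both classes. Summed bipolar markers were at 1315 to 3238 CPM in other GABAergic nuclei of the retinas, against 125 to 436 CPM in members. Whether bipolar nuclei or free RNA brought them was not tested. Since the comparison set is a mixture, these differences say nothing about any single other amacrine type.

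Starburst nuclei made up 9.29% of starburst and other GABAergic nuclei together in AAV animal 7221, 8.23% in 7248 and 8.34% in 7249. In vehicle animals they made up 11.7% in 7222, 10.8% in 7250 and 10.6% in 7251. The groups did not overlap. The means were 8.62% ± 0.585 (SD, n = 3) and 11.02% ± 0.554 (SD, n = 3), with a two-sided exact permutation p of 0.1, the smallest this design can give. With nuclei thinned to 2000 UMIs the means were 8.73% and 11.2%, and the groups overlapped (exact permutation p = 0.2, n = 3 and 3). Over the nuclei of both classes with few UMIs of other cells' markers the shares were 13.6% and 14.3% and overlapped (exact permutation p = 0.5, n = 3 and 3). At week 4 alone they were then 13.8% under AAV and 13.3% under vehicle, against 8.28% and 10.7% over all nuclei. Of all barcodes with at least 1000 UMIs, starburst nuclei were 0.531% ± 0.245 under AAV and 0.688% ± 0.174 under vehicle (exact permutation p = 0.4, n = 3 and 3), with overlap. A share of sorted nuclei cannot tell fewer starburst cells from more of the others.

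The vector's EGFP transcript was found in starburst nuclei of every AAV retina. A UMI of EGFP was present in 17.9% of members from the left eye of 7221 (exact 95% interval 13.9% to 22.4%) and 37.1% from its right eye (31.7% to 42.8%), in 14.98% (10.4% to 20.6%) in 7248 and in 15.8% (10.8% to 22.05%) in 7249. It was found in 0 of 1365 members of vehicle retinas, which allows a share of up to 0.220%. These intervals and this limit cover counting error only. Other GABAergic nuclei of the same retinas had shares of 10.0%, 21.6%, 8.28% and 11.4%, each below the share in starburst nuclei, whose median depth was greater in each retina. T cell nuclei, called by PTPRC and T cell receptor complex and signaling genes, were taken as the comparison for free RNA, although whether the vector entered them was not tested, and had 4.59% in 7248 (median 2099 UMIs) and 3.04% in 7249 (median 2055.5 UMIs). Relative to depth, EGFP at week 4 was at 23.7 and 27.0 CPM in starburst nuclei of 7248 and 7249, at 16.4 and 24.9 CPM in other GABAergic nuclei and at 21.4 and 17.8 CPM in T cell nuclei.

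With every nucleus thinned to 1000 UMIs, EGFP was seen in 2.98%, 2.93%, 2.42% and 2.26% of starburst nuclei in the same order of retinas, in 2.07%, 4.15%, 1.603% and 1.49% of other GABAergic nuclei, and in 1.83% and 1.09% of week 4 T cell nuclei. The starburst and T cell intervals overlapped, so at week 4 a level in starburst nuclei above that in T cell nuclei was not detectable at this depth. Without thinning, at least 2 EGFP UMIs were present in 3.57%, 13.4%, 4.83% and 2.26% of starburst nuclei, against 0.550% and 0.870% of T cell nuclei in 7248 and 7249, whose median depth was lower.

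Type I interferon is the signal that infected or nucleic acid-sensing cells release. Among the factors it acts through are STAT2 and IRF9, which switch on genes whose products block viral replication. In the members' summed UMIs, 55 interferon-stimulated genes together were at 2907 and 3813 CPM in the eyes of AAV animal 7221 and at 2531 and 4240 CPM in AAV animals 7248 and 7249. The 4 vehicle retinas stood between 291 and 315 CPM, far below every AAV retina. A UMI of any of IFI44, DDX60, MX2, IFI6 and ISG15, 5 antiviral genes nearly silent under vehicle, was found in 77.4%, 72.6%, 81.2% and 93.2% of AAV members and in 0.787%, 0.656%, 0% and 0% of vehicle members. These 5 genes also had the largest rises in the fit over all animals given below. A wide gap between the arms was therefore built into the set, and the shares are a description only. After thinning to 2000 UMIs the shares were 39.2% to 68.9% against 0% to 0.263%. Most AAV members thus held a UMI of these genes before thinning, and how many of those UMIs were free RNA was not tested. Members with EGFP stood at 3195, 4560, 1980 and 4180 CPM of the 55 genes and those without at 2829, 3252, 2635 and 4253 CPM, so the order differed between retinas. Both sides of the SGCZ and TENM3 split carried it, at 1926 to 3874 CPM and 2715 to 4683 CPM in the AAV retinas.

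**Figure D3:**
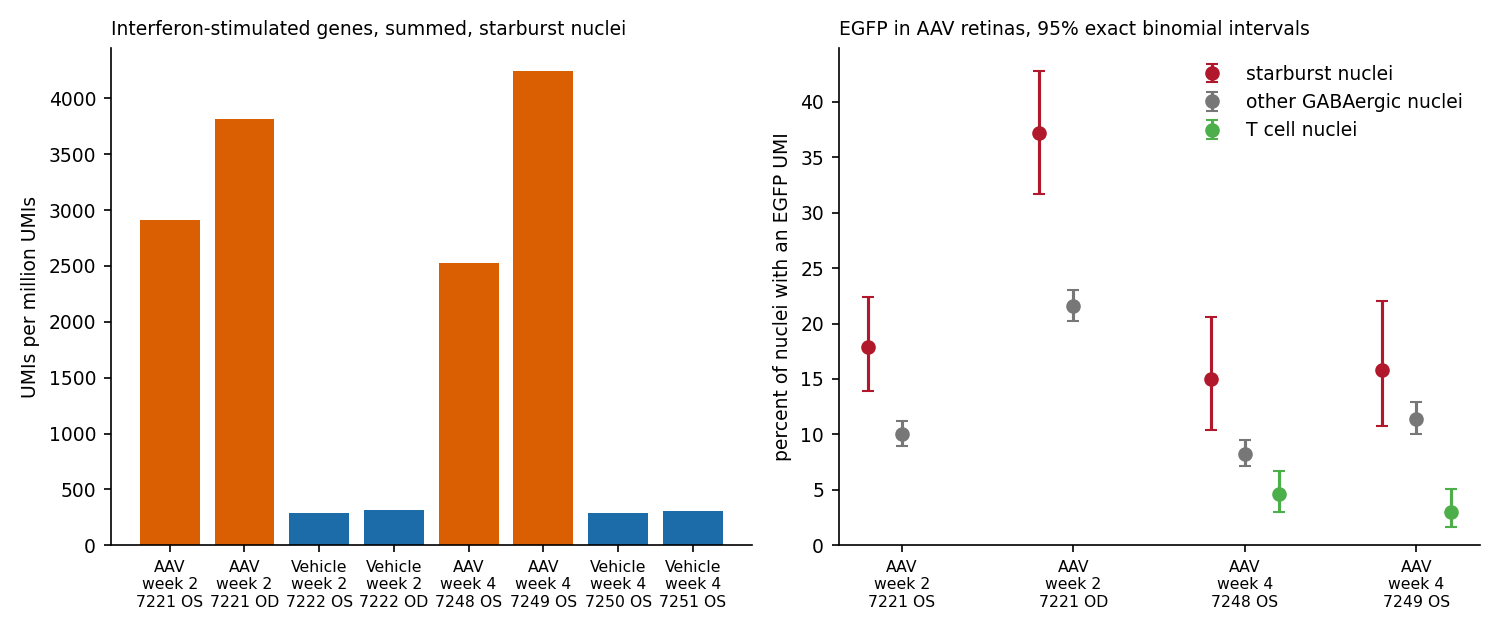
Left, CPM of 55 interferon-stimulated genes summed over starburst nuclei, 1 bar per retina (orange AAV, blue vehicle); AAV bars run from 2531 to 4240 and vehicle bars from 291 to 315. Right, the percent of nuclei with at least 1 EGFP UMI in the 4 AAV retinas, with exact 95% binomial intervals; starburst points (red) lie above other GABAergic points (grey) in each, and T cell nuclei (green, week 4) lowest, before any correction for depth.

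At week 4, AAV was compared with vehicle over summed starburst UMIs of 2 animals per arm. Of 11332 genes tested, 101 were higher under AAV (0.891%) and 29 lower (0.256%), 1.15% in all (edgeR's quasi-likelihood test, Benjamini-Hochberg adjusted). The week 4 groups did not overlap for 4666 of these genes (41.2%), so lack of overlap alone sets no gene apart. With 1 animal left out the 130 calls became 52 without AAV animal 7249, 242 without AAV animal 7248, and 171 and 137 without vehicle animals 7250 and 7251. Of 45 interferon-stimulated genes tested 41 were higher, with a median log2 fold change of 4.31 (4.28 with the 7 genes that had no vehicle UMI set at their bound) against 0.0035 over all genes. The 4 not called were IRF1 (1.88), IFIT5 (2.24), UBE2L6 (1.63) and GBP2 (0.29). At week 2, with 1 animal per arm and no test, 44 of these 45 genes were more than 2-fold higher in the AAV animal, against 1.04% of all genes, and 0 were more than 2-fold lower, against 0.0794%. The median at week 2 was 2.48 on the log2(CPM + 5) scale, against 0.059 over all genes. The count of 41 fell to 23 without AAV animal 7249, and was 37 with DESeq2.

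IFI6, an interferon-induced antiviral protein, was at 123 and 104 CPM in the eyes of AAV animal 7221, 131 in 7248 and 272 in 7249, against 0.330 and 1.15 CPM in 7222 and 0 in 7250 and 7251. It was at least 241-fold higher at week 4. DDX60, a helicase that assists RNA sensing, was at 148, 225, 104 and 186 CPM under AAV and at 0.660, 0.862, 0 and 0 CPM under vehicle, at least 176-fold higher at week 4. IFI44 was at 14.7, 16.3, 60.6 and 118 CPM under AAV and at 0 in all 4 vehicle retinas (at least 108-fold at week 4). No AAV retina overlapped a vehicle retina for any of these genes. They were named among week 4 rises without overlap, so the week 4 part of this was fixed by the choice. Of all genes tested 41.2% did not overlap at week 4.

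The GTPase MX2 was at least 74.1-fold higher at week 4, the nucleic acid sensor ZBP1 at least 41.5-fold, the ubiquitin-like modifier ISG15 at least 33.0-fold and the virus tether BST2 at least 14.4-fold. These bounds set 3 UMIs for the vehicle group, which had 0 for each gene. IFI44L (log2 fold change 8.46 ± 0.59), the ISG15 ligases HERC5 (7.73) and HERC6 (7.27), EPSTI1 (7.51) and the zinc finger antiviral protein ZC3HAV1 (6.34) had 1 to 4 vehicle UMIs at week 4. The ratio of their summed week 4 levels, with its 95% counting interval, was 382 (105 to 3165) for IFI44L, 236 (64.8 to 1953) for HERC5, 234 (41.4 to 9283) for EPSTI1 and 103 (18.0 to 4114) for ZC3HAV1. IRF9 stood at 65.97, 61.3, 44.1 and 75.3 CPM under AAV and 1.98, 5.75, 6.66 and 4.53 CPM under vehicle (3.39 ± 0.35, adjusted p = 0.00041). Its groups did not overlap, as was so at week 4 for 41.2% of all genes tested. STAT2 (2.05), the RNA sensors RIGI (4.28) and IFIH1 (6.11), and IRF7 (5.47) were higher too. IFIH1 and IRF7 had 3 and 1 vehicle UMIs at week 4, for ratios of 75.0 (25.2 to 366.9) and 57.2 (9.75 to 2308). The interferon receptor genes IFNAR1 (0.57) and IFNAR2 (0.74) did not pass (adjusted p = 0.37 and 0.16). IGHM, the immunoglobulin mu heavy chain and a gene of B cells, was at 6.06 and 18.8 CPM in the week 4 AAV retinas and at 0 in the other 6. Of the 101 genes 20 had no symbol, and the largest rises among them were ENSSSCG00000038719, ENSSSCG00000057171 and ENSSSCG00000014670. BST2 and the last 2 of these did not pass without AAV animal 7249 (adjusted p = 0.44, 0.15 and 0.31).

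MHC class I presents peptides from inside the cell to T cells, and neurons normally carry little of it. Of 13 genes of this pathway tested, 9 were higher, against 0.891% of all genes. The light chain B2M was at 32.5, 38.1, 59.5 and 86.8 CPM under AAV and at 0.991, 1.15, 1.21 and 1.81 CPM under vehicle (5.46 ± 0.37, adjusted p = 2.4e-05). NLRC5, the transactivator of class I genes, stood at 34.2, 69.2, 59.5 and 84.3 CPM against at most 1.81 CPM (5.69). The peptide transporters TAP1 (6.25) and TAP2 (4.38), the peptidase ERAP1, TAPBP, the proteasome activators PSME1 and PSME2 and the immunoproteasome subunit PSMB8, at least 9.32-fold higher with 0 vehicle UMIs at week 4, completed the 9. The week 4 ratio was 85.1 (23.1 to 710.1) for TAP1 and 22.02 (7.13 to 110.2) for TAP2, with 2 and 3 vehicle UMIs. The count was 3 without AAV animal 7249, and PSMB8 did not pass when either vehicle animal was left out (adjusted p = 0.10 and 0.17).

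Outside these lists few listed genes moved. STAT3 was at 107 and 98.2 CPM under AAV and 49.1 and 36.3 CPM under vehicle at week 4 (1.27 ± 0.20, adjusted p = 0.0088), but at 48.2 and 38.4 against 38.3 and 41.7 CPM at week 2. The axon guidance receptor ROBO2 was higher at week 4 (0.72, adjusted p = 0.039). Called in neither direction were 9 starburst markers, 20 GABA and glycine receptors, 21 glutamate receptors, 26 voltage-gated channels, 20 release genes, 13 p53 targets, 12 apoptosis genes, 7 TNF and NF-kB genes and 4 complement genes, with list medians between -0.08 and 0.57. Over these lists 14 of 132 entries had an unadjusted p under 0.05, as did 1201 of all 11332 genes tested (5 by DESeq2, which called 0), and leaving out single animals called at most 4, among them GRM7 and GRM3. In the simulated data of this size, 61% of genes changed 2-fold and 89% of genes changed 4-fold were called, so changes of these sizes could have been missed too.

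The same contrast over all 6 animals, with week as a term and both eyes of a week 2 animal summed, called 114 of 11633 genes higher (0.98%) and 8 lower (0.0688%), 1.05% in all. Of the higher genes 84 were called in both fits, 83.2% of the week 4 list and 73.7% of the 6-animal list, and of the lower genes 3. Those lower genes were SQLE, ATP6 and HHLA2. HHLA2 stood at -1.09 at week 4 and -0.82 over 6 animals (adjusted p = 0.0055 and 0.025, edgeR's quasi-likelihood test). The fits share the week 4 animals. Of 46 interferon-stimulated genes 45 were higher over 6 animals. The difference between the treatment effect at week 4 and at week 2 passed for 0 of 13236 genes (edgeR's quasi-likelihood test; 730 at an unadjusted p under 0.05, and 0 by DESeq2). With 1 animal per arm at week 2, the spread in this fit came from the week 4 animals alone, so the count does not show that the weeks were alike. In values without a test, IFI44 and MX2 were higher in the week 4 AAV retinas than in the week 2 ones, and ISG15 was lower.

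Promoters of the genes that moved are printed here because members rose together. The interferon-stimulated response element, which factors holding STAT2 and IRF9 bind, holds GAAA, any 2 bases, then GAAA, and was searched on both strands in the 300 bases before each RefSeq gene start (Sscrofa11.1). Of the 8513 of 11332 tested genes that matched a RefSeq start, 3.13% held it, as did 20.5% of the 78 matched genes that were higher at week 4, 30.2% of 43 interferon-stimulated genes and 0 of 20 lower genes. The 4 stretches of 100 bases shown are from the largest rises among genes whose window held a match, so each had to show one. DDX60, IFI44 and MX2 rose more than ZBP1 and are not shown. The stretches run 5′ to 3′ on the gene's strand, with matches on either strand in capitals. In ISG15 the capitals include overlapping matches.
IFI6 (chr6:84858073-84858172, minus strand): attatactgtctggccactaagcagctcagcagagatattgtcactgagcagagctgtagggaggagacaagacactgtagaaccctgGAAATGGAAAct
ZBP1 (chr17:57986157-57986256, minus strand): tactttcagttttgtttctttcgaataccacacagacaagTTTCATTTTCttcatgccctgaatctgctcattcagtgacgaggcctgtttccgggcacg
ISG15 (chr6:63363053-63363152, plus strand): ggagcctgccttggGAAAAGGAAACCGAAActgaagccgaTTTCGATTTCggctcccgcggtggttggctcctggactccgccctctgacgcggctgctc
IFI44L (chr6:134679213-134679312, minus strand): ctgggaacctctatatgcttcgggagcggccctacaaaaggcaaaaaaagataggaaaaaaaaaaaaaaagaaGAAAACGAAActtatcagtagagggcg

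Among the 29 lower genes MYH15 had the lowest adjusted p at week 4. It was at 89.4 and 138 CPM in the AAV eyes and 147 and 127 CPM in the vehicle eyes at week 2, and at 17.1 and 22.1 CPM under AAV against 86.6 and 91.1 CPM under vehicle at week 4. The week 4 groups did not overlap, as for 41.2% of all genes tested. The log2 fold change was -2.21 ± 0.21 (adjusted p = 0.00025), while over 6 animals it was -1.31 (adjusted p = 0.067). In TENM3-side nuclei MYH15 stood at 19.7 and 25.7 CPM under AAV and 162 and 146 CPM under vehicle. On the SGCZ side it stood at 21.9 and 28.1 CPM against 29.6 and 29.0 CPM, and in members with few starburst markers at 0 and 0 against 18.3 and 13.6 CPM (5 and 4 UMIs). The sides were chosen after the values were seen and their difference was not tested.

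Other named falls were the metalloprotease ADAMTS19 (11.03 and 4.91 against 41.2 and 53.04 CPM, -2.48), MOB3B (-3.74), the estrogen receptor ESR2 (2 UMIs against 34, a ratio of 0.0747 with a counting interval of 0.00870 to 0.292) and the G protein regulator RGS6 (-2.47). Without AAV animal 7249 these 4 did not pass (adjusted p = 0.066, 0.15, 0.41 and 0.44). ESR2 did not pass whichever animal was left out, and RGS6 did not without vehicle animal 7251 (adjusted p = 0.13). RLBP1 (-2.00) and RGR (0 UMIs in both AAV retinas against 10.3 and 14.05 CPM under vehicle), genes of the visual cycle in Müller cells and pigment epithelium, TF (transferrin, -3.12) and PTGDS (prostaglandin D synthase, -1.79) also fell. These 4 did not pass without AAV animal 7249 either (adjusted p = 0.092, 0.085, 0.22 and 0.069), nor RLBP1, RGR and TF without vehicle animal 7251 (adjusted p = 0.12, 0.052 and 0.085) or RLBP1 without AAV animal 7248 (adjusted p = 0.089), so that of the 9 falls named here only MYH15 passed whichever animal was left out. Each of these fits set 1 animal against 2, the lone one being assumed to vary like the other arm. The summed Müller cell markers in the members were at 24.6 to 26.5 CPM in the week 4 AAV retinas and 58.2 to 77.1 CPM in the week 4 vehicle retinas (52.5 to 73.0 CPM at week 2). With members of few other-cell UMIs only, RLBP1 (-1.10, adjusted p = 0.47), RGS6 (-1.49, adjusted p = 0.14) and TF (-2.94, adjusted p = 0.081) no longer passed, TF with a fold close to that in all members, and RGR, MOB3B, ESR2 and ADAMTS19 could not be tested. Astrocyte markers (8.19 to 19.8 against 40.8 to 64.8 CPM) and endothelial markers (13.1 to 24.8 against 41.8 to 55.8 CPM) were lower too and microglial markers higher (26.2 to 38.0 against 14.1 to 18.8 CPM). Cone markers (14.9 to 18.0 against 27.9 to 46.2 CPM) and rod markers (669 to 855 against 895 to 932 CPM) were also lower. Bipolar, horizontal, ganglion cell and T cell markers overlapped between the groups. The part of other cells' RNA in the falls was otherwise not tested. Of 11 mitochondrial genes 5 were lower at week 4 (median -1.20) and 5 over 6 animals, ATP6 in both fits, against 0.256% and 0.0688% of all genes. With members of few other-cell UMIs none of the 10 that could be tested passed in either fit, and those 5 of week 4 stood at -0.46 to -0.88 (adjusted p = 0.11 to 0.57). None of the 9 falls named for their size passed over 6 animals.

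Genes of cholesterol synthesis and uptake, which SREBF2 switches on when membrane sterol is low, were gathered into a list of 24 after the falls were seen, so its counts are a description. Of 21 tested 7 were lower, among them SQLE, TM7SF2, LSS, FDFT1 and SREBF2 itself, and 0 higher (0.256% of all genes were lower). All 21 had negative log2 fold changes at week 4, with a median of -0.92, against 49.5% of all 11332 genes. SQLE, the squalene epoxidase, was at 35.8 and 37.7 CPM under AAV and 114 and 114 CPM under vehicle. LSS, the lanosterol synthase, was at 206 and 165 against 448 and 536 CPM. In both the week 4 groups did not overlap, as in 41.2% of all genes tested. At week 2 LSS stood at 532 and 505 CPM in the AAV eyes and 488 and 510 CPM in the vehicle eyes, the list median was -0.05 on the log2(CPM + 5) scale, and 13 of 21 were negative, against 39.4% of all genes. In other GABAergic nuclei at week 4 all 21 were negative as well (median -0.49, against 50.5% of all genes), and the difference between the classes was called for 0 genes. Only SQLE passed over 6 animals. The count of 7 ranged from 2, without AAV animal 7249, to 10.

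A sterol element (TCAC, any base, then CCAC), searched in the same way, was in 0.869% of the 8513 promoters, in 3 of 20 matched lower genes (SQLE, ALDOC and SREBF2) and in 0 of the 78 higher genes. The letters were chosen after the falls were seen. The matches in the sterol genes of that set are in capitals.
SQLE (chr4:14700270-14700369, minus strand): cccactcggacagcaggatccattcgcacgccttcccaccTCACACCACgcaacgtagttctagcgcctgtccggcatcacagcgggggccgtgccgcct
SREBF2 (chr5:6784758-6784857, minus strand): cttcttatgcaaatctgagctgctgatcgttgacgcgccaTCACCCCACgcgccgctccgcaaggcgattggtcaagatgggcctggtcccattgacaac

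**Figure D4:**
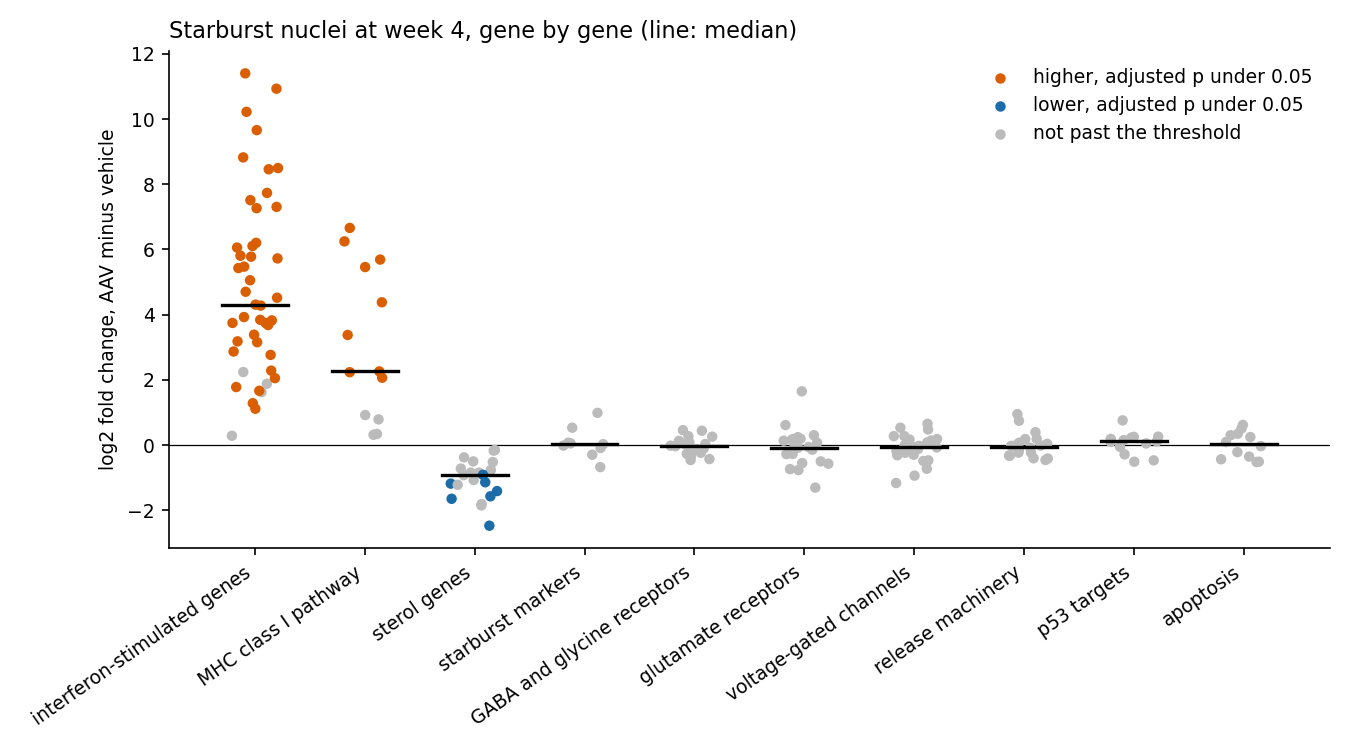
Log2 fold change of AAV over vehicle in starburst nuclei at week 4, 1 point per tested gene and a line at each list's median; orange and blue points passed an adjusted p of 0.05. Interferon-stimulated and MHC class I genes lie above 0 and all sterol genes below it, while the neuronal, p53 and apoptosis lists lie around 0 with no gene past the threshold. Fitted values of genes without a vehicle UMI depend on the prior count.

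Whether the treatment effect in starburst nuclei differed from that in other GABAergic nuclei was tested at week 4 with an interaction term and the animal as a block. It passed for 15 of 18015 genes (0.0833%), 6 with a positive difference (0.0333%) and 9 with a negative one (0.05%), as starburst minus other nuclei. No gene of the interferon-stimulated list was among them, although SP140, an interferon-responsive gene outside that list, was. Over 45 genes of the list the median log2 change on CPM + 5 was 2.54 in starburst and 2.32 in other GABAergic nuclei, and the median of the fitted differences was 0.55 (0.0025 over all genes). The smallest adjusted p of a difference was 0.61. An unadjusted p under 0.05 was found for 11 of the 45, a larger share than the 1084 of all 18015 genes. In other GABAergic nuclei, summed bipolar markers at week 4 were at 2395 and 3238 CPM under AAV and 1315 and 1887 CPM under vehicle. Their part in the differences between the classes was not tested.

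The difference held best for MYH15 (-2.13 ± 0.33, adjusted p = 0.010), which in other GABAergic nuclei was at 3.72 and 3.20 CPM under AAV and 3.30 and 4.08 CPM under vehicle. It passed in every alternative except the fit without the animal block (adjusted p = 0.15), in which no gene passed. ADAMTS19 fell in starburst nuclei and stood at 63.4 and 49.7 against 77.3 and 63.9 CPM in the others (difference -2.22). It did not pass among nuclei with a mitochondrial share of at most 0.5% or with limma (adjusted p = 0.12 and 0.086). For CNKSR3 the starburst levels were 257 and 205 CPM under AAV and 402 and 308 CPM under vehicle, and those of the others 18.3 and 33.2 against 12.7 and 11.5 CPM (difference -1.65). Without comparators holding horizontal cell markers that difference was 0.045, and it did not pass at that mitochondrial limit or with limma (adjusted p = 0.070 and 0.086). CLVS1, a clathrin vesicle protein, was at 149 and 133 against 147 and 144 CPM in starburst nuclei and at 41.3 and 36.4 against 17.6 and 14.6 CPM in the others (difference -1.34). With members of few other-cell UMIs only, ADAMTS19 (-3.16, adjusted p = 0.37), CNKSR3 (-1.07, adjusted p = 0.65) and CLVS1 (-0.93, adjusted p = 0.37) did not pass.

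The growth factor receptor EGFR was at 31.4 and 31.1 CPM under AAV and 7.88 and 8.16 CPM under vehicle in all members (difference 1.81 ± 0.32, adjusted p = 0.024). The members with few starburst markers carried it, at 165 and 172 CPM under AAV and 25.7 and 51.1 CPM under vehicle. With marker-bearing members only, the difference was -0.14 (adjusted p = 1). CALB2 (calretinin) went from 1.56 to 0.56 there (adjusted p = 0.94) and PIK3C2G from 1.68 to 0.081 (adjusted p = 1). With at least 3 UMIs of CHAT and SLC5A7 together, EGFR stood at 0.43 (adjusted p = 0.98) and CALB2 at 0.41 (adjusted p = 0.97). With members of few other-cell UMIs, EGFR (2.20, adjusted p = 0.091) and PIK3C2G (1.17, adjusted p = 0.13) did not pass, though the EGFR difference was no smaller. The remaining named differences were BNC2 (3.01), SP140 (1.44), IL6R (-2.47) and GALNT18 (-1.58), and each of these 4 failed in 9 or more alternatives, as EGFR did in 9.

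**Figure D5:**
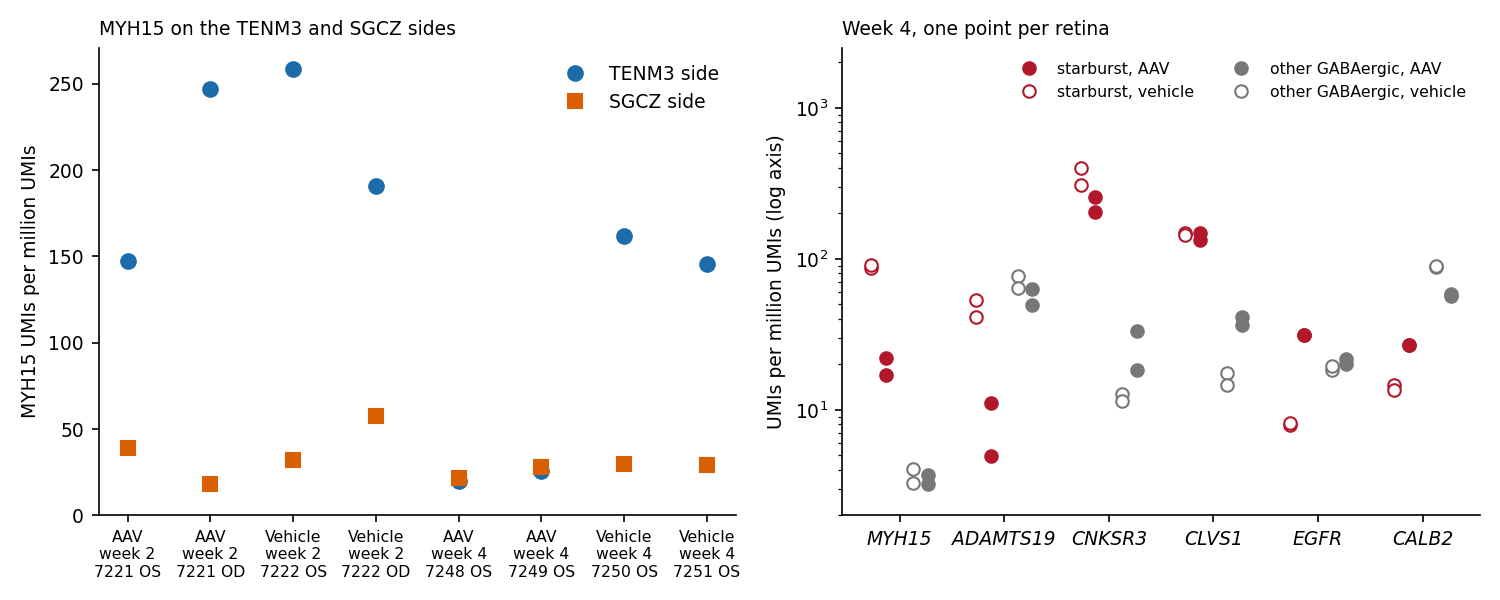
Left, MYH15 CPM in TENM3-side (blue) and SGCZ-side (orange) starburst nuclei, 1 point per retina; the blue points lie at 146 and above except in the week 4 AAV retinas, at 19.7 and 25.7. Right, week 4 levels of 6 genes on a log axis in starburst (red) and other GABAergic nuclei (grey), filled for AAV and open for vehicle, 1 point per retina.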

How the data were processed

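Droplet single-nucleus RNA-seq of 8 retinas was analysed. The deposited values are UMI counts per gene and barcode that the authors made from their reads, 1 matrix per lane, with no barcode under 500 UMIs. The submitters' processing notes name Cell Ranger 8.0.0 and Sscrofa11.1. A gene's antisense or overlapping partner could share UMIs, and rare genes in nuclei are limited by depth. No deposited value was normalized. No per-sample column was left unused (0).

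Members, comparison nuclei, gene lists and motifs were chosen with earlier results of these data known. No cell clustering was used. Doublets were scored by a Scrublet-type scheme per lane and kept; removing the 5% highest scores, which held 1.25% of members, was an alternative. UMIs of a class were summed per animal (both eyes of a week 2 animal together). The main test was edgeR 4.0.16's quasi-likelihood test (R 4.3.3) with TMM scaling, its low-count filter, the animal as a block where classes were compared, and Benjamini-Hochberg adjustment over all genes tested (threshold 0.05). CPM values are UMIs per 1000000 UMIs of those nuclei, log2 fold changes are the fit's, and ± gives the SE unless SD is named. DESeq2 1.42.0 and limma 3.58.1 (voom) were alternatives. The 9 genes of the rule, SLC18A3 and EGFP (11 in all) were left out of tests.

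Genes were named by a fixed rule: the members of 33 lists (491 of 531 symbols found); for starburst against other nuclei the 12 highest and 8 lowest log2 differences with a symbol, a mean of at least 20 CPM and the same direction in 6 of 6 animals; at week 4 the 15 largest rises and 10 largest falls with a symbol and no overlap; and for each interaction the 5 largest in each direction. Some genes that met the rule, 1 of the 10 falls among them, are not reported here. CLVS1, the sterol genes and the sides of SGCZ and TENM3 were described after their values were seen. Lists covered starburst, amacrine, rod, cone, bipolar, horizontal, ganglion, Müller, astrocyte, microglial, T and endothelial cell markers, transmitter, receptor, channel, release and adhesion genes, and interferon, MHC class I, p53, TNF, complement, JAK and STAT3, apoptosis, necroptosis, injury and AAV entry genes. On simulated counts with 200 changed genes, the class fit recovered 81% of 2-fold and 98% of 4-fold changes, the week 4 fit 61% and 89%, and the 6-animal fit 57% and 96%; 11.8%, 10.2% and 5.56% of calls were false. Single values were compared with two-sided exact permutation tests.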

Additional observations from a re-analysis of the deposited data

Results flagged for a closer look

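In the main fit the treatment effect at week 4 differed between starburst and other GABAergic nuclei for the genes named from the interaction test (edgeR's quasi-likelihood test, adjusted p under the threshold). Values are log2 differences of starburst minus other nuclei. The difference was positive for BNC2 (3.01), EGFR (1.81), PIK3C2G (1.68), CALB2 (1.56) and SP140 (1.44). It was negative for IL6R (-2.47), ADAMTS19 (-2.22), MYH15 (-2.13), CNKSR3 (-1.65) and GALNT18 (-1.58). With marker-bearing members only, EGFR stood at -0.14, PIK3C2G at 0.081 and CALB2 at 0.56. CNKSR3 stood at 0.045 without comparators holding horizontal cell markers. BNC2, EGFR, SP140, IL6R and GALNT18 each failed in 9 or more alternatives. Levels behind the differences moved in either class. BNC2 stood at 8.82 and 17.2 CPM under AAV against 4.85 and 0.907 CPM under vehicle in starburst nuclei, and at 11.4 and 8.36 against 26.8 and 9.44 CPM in the others. SP140, an interferon-responsive nuclear body gene, stood at 76.1 and 110.5 against 7.27 and 7.25 CPM in starburst nuclei and at 105 and 137 against 28.2 and 24.7 CPM in the others. IL6R, the interleukin 6 receptor, stood at 9.92 and 4.09 against 17.6 and 17.2 CPM and at 7.23 and 4.22 against 2.23 and 2.79 CPM. GALNT18 stood at 35.3 and 18.0 against 47.3 and 84.3 CPM and at 267 and 237 against 206 and 202 CPM.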

How the results depend on the processing

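The class contrast kept within 1.5 times of its 7427 calls except after thinning to 2000 UMIs (4396), and its 20 named genes kept their direction and their call in all 398 gene and setting pairs. Of the 130 week 4 calls, leaving out 1 animal each gave 52 to 242 and testing without a low-count filter 373. The 6-animal fit gave 305 without that filter and 105 to 141 with 1 animal left out, and named week 4 genes passed in 341 of 378 gene and setting pairs with no change of sign. The cause of these moves was not tested.

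The week difference, 0 calls in the main fit, gave 1 with CHAT and SLC5A7 of at least 3, 5 with a mitochondrial share of at most 0.5%, 4 with library size scaling, 84 without the filter, 1 with limma, 23 with marker-bearing members only and 0 to 45 with 1 week 4 animal left out; without a week 2 animal it could not be fitted. The class difference in treatment effect, 15 calls, gave 8 at 2000 UMIs, 7 with the mitochondrial limit, 9 without the highest doublet scores, 5 with DESeq2, 5 with limma, 87 without the filter, 7 with comparators free of CHAT and SLC5A7, 71 with marker-bearing members, 4 with few UMIs of other cells' markers and 20 to 177 with 1 animal left out. EGFR turned to -0.14 with marker-bearing members and CNKSR3 to 0.045 without comparators holding horizontal cell markers. The week 4 share of starburst nuclei turned to 0.53 percentage points with few UMIs of other cells' markers (main difference -2.42).

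EGFP was in 3.57%, 13.4%, 4.83% and 2.26% of members at 2 UMIs and in 2.98%, 2.93%, 2.42% and 2.26% after thinning to 1000 UMIs, in the order of the AAV retinas above. Without the animal as a replicate block the class contrast gave 5943 calls and the class difference in treatment effect 0. No paired analysis of AAV against vehicle was possible because their numbers follow accession order only. The FEZF1 split was not run, having 31 members, and the class contrast was not run on marker-bearing members, whom its genes would have chosen.

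Limits: 2 animals per arm at week 4 and 1 at week 2, a batch equal to the group, sums over 177 to 457 nuclei per retina, and possible free RNA in the droplets, which was not measured.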
